A study of Mus musculus with 2 samples.

Results

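Tendon-marker cells were studied in single-cell RNA sequencing (scRNA-seq) of the mouse digit after amputation through the second phalanx (P2). A cell was included if it held a transcript of at least 3 of 6 tendon markers (*Tnmd*, *Scx*, *Mkx*, *Kera*, *Fmod* and *Comp*) and of *Tnmd* or *Scx*, fewer than 10 transcripts of *Prg4*, at most 2 of the bone genes *Ibsp*, *Bglap*, *Bglap2* and *Sp7*, and at most 3 of the cartilage genes *Acan*, *Col9a1*, *Col9a2*, *Col9a3*, *Matn1* and *Snorc*. This rule gave 634 of 9967 cells, of which 329 came from FGF8 digits and 305 from BSA digits. Members were thus chosen by their measured UMIs of these genes. The cells are called tendon-marker cells here, after the rule, because it reads only which of these genes were detected. Since the rule used these genes, their levels are given as a description.

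Hindlimb digits 2 and 4 of neonatal mice were amputated through P2 at postnatal day 3, and a bead soaked in FGF8 at 500 ng/ul or in 0.1% BSA, the carrier protein without growth factor, was placed at the wound at postnatal day 7. The tissue was taken 24 h after the bead, at postnatal day 8, and cells came from the part distal to the stump, after the epithelium had been taken off and the tissue digested with Liberase. Each library was 1 pool of 20 digits from 5 mice, with males and females together, and the FGF8 pool likely included digits that would not have formed a joint. The labels give no strain; the study's methods name ICR mice beside a reporter line, without saying which were pooled. With 1 library for each condition there was no replicate, and no test between conditions was made. All intervals are 95% intervals that cover counting error only, and the effect of the bead cannot be told apart from that of the animals, the dissection or the library.

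Tendons join muscle to bone through parallel bundles of type I collagen, laid down by tenocytes. Scleraxis (*Scx*) and Mohawk (*Mkx*) are transcription factors of the tendon lineage, and tenomodulin (*Tnmd*) is a membrane glycoprotein of mature tenocytes that lies downstream of *Scx*. Keratocan (*Kera*) and fibromodulin (*Fmod*) are small leucine-rich proteoglycans that bind collagen fibrils, and *Comp* encodes a thrombospondin of tendon and cartilage that assists fibril assembly. Cells with both *Scx* and *Sox9* are known to build the tendon attachment to bone. FGF signals act through receptor tyrosine kinases and ERK on Ets factors such as *Etv4*, and FGF from muscle promotes tendon progenitors in the developing embryo.

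Counts of unique molecular identifiers (UMIs, 1 per captured transcript) were summed over the tendon-marker cells of a library and scaled to counts per 1000000 UMIs (CPM), and FGF8 was compared with BSA as a log2 ratio of CPM. The tendon-marker cells of the FGF8 library held 7941860 UMIs in all, with a median of 22112 per cell, and those of the BSA library 8309380, with a median of 25866. Sex was read from *Xist* and Y-linked UMIs. The FGF8 library had 62 female-called and 229 male-called tendon-marker cells, and the BSA library 217 and 44, so the sexes were unevenly split between conditions and ratios are also given within each sex. No barcode of a tendon-marker cell occurred in both libraries, which shared 6 barcodes in all. The summed level of 10 macrophage genes was 131 CPM (FGF8) and 126 CPM (BSA), against 12333 and 14696 CPM in macrophage-gated cells, and 18 tendon-marker cells in each library held 3 or more of those genes. The summed levels of neutrophil, endothelial, mural, Schwann cell, keratinocyte, mast cell and skeletal muscle markers lay between 2.64 and 127 CPM in either library. Erythroid markers, mostly globin transcripts, summed to 2480 CPM (FGF8) and 8008 CPM (BSA). Bone markers, which include *Spp1* at 1434 CPM (FGF8) and 152 CPM (BSA), summed to 1732 and 443 CPM, with 3 or more of the 12 genes in 138 and 73 tendon-marker cells, and cartilage markers to 469 and 523 CPM, under a rule that capped some genes of both classes. The part of these transcripts in the results below was not tested. A UMI of *Ptprc*, *Pecam1*, *Sox10*, *Rgs5* or *Krt14* was found in 72 (21.9%) and 68 (22.3%) tendon-marker cells. Doublets were not removed.

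Each of the 6 tendon markers was found in 44.7% to 82.1% of FGF8 and in 45.6% to 79.3% of BSA tendon-marker cells. *Scx* (chr15:76341563-76344281 on GRCm39) was found in 79.9% of FGF8 and 79.3% of BSA tendon-marker cells, at 145 and 155 CPM. *Tnmd* was found in 49.2% and 50.2% of them, at 366 and 320 CPM. *Mkx* stood at 52.4 and 60.1 CPM, *Kera* at 156 and 163 CPM, and *Fmod* at 308 and 334 CPM. For these 5 genes the log2 ratio of FGF8 over BSA lay between -0.20 and 0.19. *Comp* was lower with FGF8, at 517 against 750 CPM (log2 ratio -0.54, -0.59 to -0.48), but not in cells that held both *Tnmd* and *Scx*, where its log2 ratio was 0.20. *Tnmd* lies on the X chromosome (chrX:132751720-132766326 on GRCm39), and its log2 ratio was -0.28 among female-called cells and 0.45 among male-called ones.

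The rule itself asks for *Tnmd* or *Scx*, so the shares of cells with these genes follow in part from it and are given as a description. After every cell was thinned to 5000 UMIs, *Scx* was found in 43.7% (FGF8) and 42.8% (BSA) of tendon-marker cells, against 1.22% and 1.56% of macrophage-gated cells, which should lack it. *Tnmd* was found in 32.7% and 31.2% of tendon-marker cells and in 1.68% and 1.25% of macrophage-gated cells. In other connective tissue cells, which lay outside the rule, *Tnmd* was still found in 16.4% of thinned FGF8 cells and in 184 of 918 thinned BSA cells, while *Scx* was found in 3.12% and 3.59% of them.

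**Figure D1:**
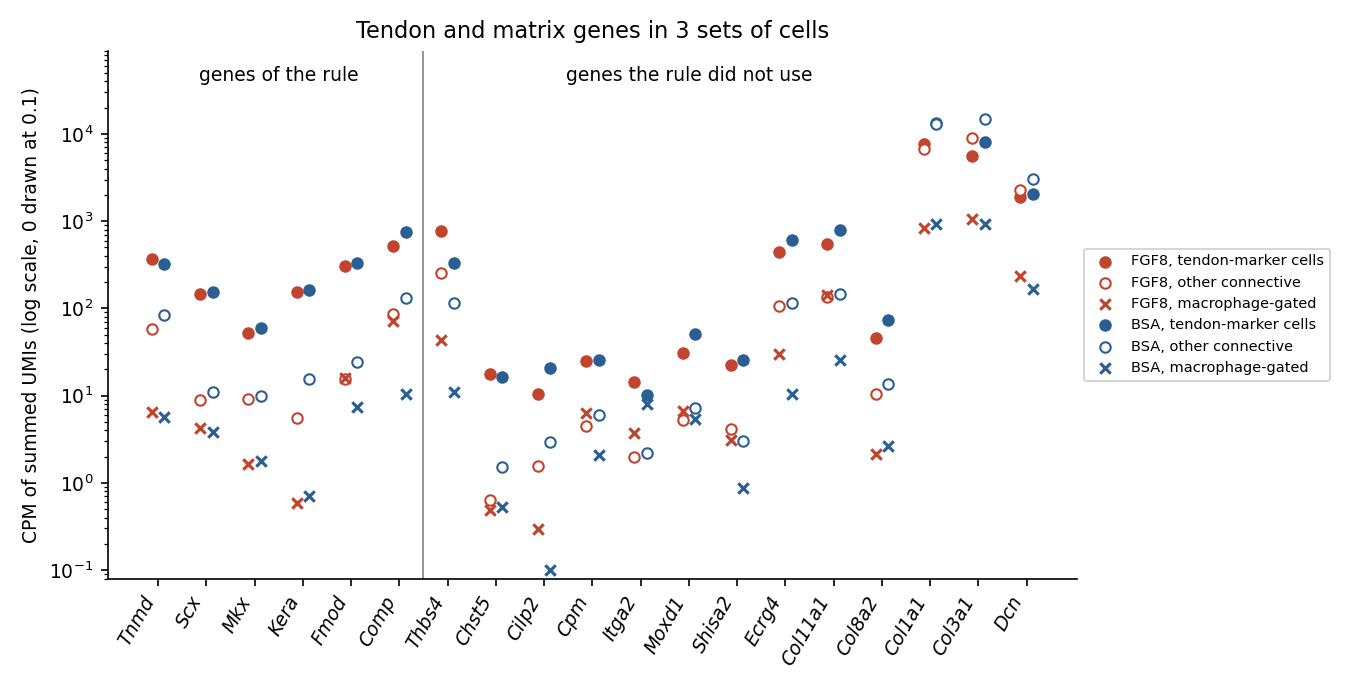
CPM of summed UMIs (log axis, 0 drawn at 0.1) of tendon and matrix genes in tendon-marker cells (filled circles), other connective tissue cells (open circles) and macrophage-gated cells (crosses) of the FGF8 (red) and BSA (blue) libraries; genes left of the line were used by the rule. *Chst5* stood at 17.6 and 16.2 CPM in tendon-marker cells and at 0.64 and 1.53 CPM in other connective tissue cells, while *Col1a1* was at like levels in both sets of cells within a library.

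Genes that the rule did not use also set these cells apart from other connective tissue cells. The 15 genes with the largest ratio in both libraries, taking the smaller ratio of the pair, were *Chst5*, *Cilp2*, *Moxd1*, *Kcnk1*, *C130050O18Rik*, *Shisa2*, *Dlx5*, *Cited1*, *Gm17455*, *Itga2*, *Col8a2*, *Cpm*, *Matn3*, *Ecrg4* and *Col11a1*, with log2 ratios from 2.03 to 3.41. *Chst5*, a sulfotransferase that adds sulfate to keratan sulfate chains, such as those carried by keratocan and fibromodulin, led the list at 17.6 CPM (FGF8) and 16.2 CPM (BSA), against 0.64 and 1.53 CPM in other connective tissue cells. *Col11a1*, a fibril collagen that sets the diameter of thin fibrils, stood at 550 and 801 CPM against 134 and 145 CPM, although macrophage-gated cells of the FGF8 library also held 144 CPM. *Ecrg4*, a secreted peptide precursor, stood at 448 and 612 CPM against 108 and 114 CPM. *Matn3* (matrilin 3) and *Dlx5*, a homeobox factor, are better known from cartilage and bone. *Dlx5* was held mostly by cells with 3 or 4 tendon markers. From 3 to 6 markers it stood at 11.3, 16.1, 0 and 2.2 CPM with FGF8. With BSA the corresponding levels were 7.9, 17.6, 3.9 and 0 CPM. *Cilp2*, whose product lies in the matrix of cartilage and tendon, stood at 10.3 and 20.6 CPM against 1.56 and 2.96 CPM. Since these genes were picked as the highest, their ratios describe the cells and were not tested.

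*Col1a1*, among the most abundant matrix transcripts, differed little between these sets of cells. It stood at 7640 CPM (FGF8) and 13380 CPM (BSA) in tendon-marker cells, and at 6754 and 12980 CPM in other connective tissue cells. By the number of tendon markers, however, *Col1a1* and *Col3a1* both varied, in opposite directions. *Col1a1* stood at 6692 CPM (FGF8) and 11685 CPM (BSA) in cells with only 2 markers, including *Tnmd* or *Scx*. In tendon-marker cells with 6 markers *Col1a1* stood at 11516 and 16791 CPM. *Col3a1* stood at 7612 CPM (FGF8) and 11472 CPM (BSA) in the cells with only 2 markers. With 6 markers *Col3a1* stood at 5176 and 6026 CPM.

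Tendon-marker cells could hold *Tnmd*, *Scx* or both. Of the FGF8 cells, 167 held *Scx* without *Tnmd*, 96 held both and 66 held *Tnmd* without *Scx*, and of the BSA cells 152, 90 and 63. *Sox9*, the cartilage and tendon attachment factor, stood at 84.5 CPM in FGF8 cells with *Scx* alone, at 48.1 CPM with both and at 26.2 CPM with *Tnmd* alone. In BSA cells the corresponding levels were 96.1, 55.6 and 6.8 CPM. *Acan*, the large proteoglycan of cartilage, followed the same order, at 371, 306 and 120 CPM (FGF8) and 387, 330 and 137 CPM (BSA), although the rule capped the number of cartilage genes in every class. *Moxd1*, a monooxygenase-like gene, also stood lowest in cells with *Tnmd* alone, at 9.7 CPM (FGF8) and 3.8 CPM (BSA). These levels describe the 3 classes and were not tested.

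Cells with *Tnmd* but no *Scx* held the highest levels of *Col3a1* and *Chodl* among these classes. *Col3a1*, the collagen of reticular fibres, stood in them at 8261 CPM (FGF8) and 11247 CPM (BSA), against 4856 and 7391 CPM in cells with *Scx* alone. *Chodl* (chondrolectin) stood at 50.2 and 84.1 CPM in them, and at 2.8 and 6.2 CPM in cells with *Scx* alone; the single highest cell held 37.1% (FGF8) and 44.6% (BSA) of all *Chodl* UMIs in tendon-marker cells. *Comp* and *Ecrg4* were lowest in cells with *Tnmd* alone, *Ecrg4* at 223 CPM (FGF8) and 166 CPM (BSA), against 470 and 697 CPM in cells with *Scx* alone. These *Tnmd*-only cells were shallower, with a median of 15418 (FGF8) and 19439 (BSA) UMIs, against 23754 and 26937 UMIs in cells with *Scx* alone.

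A second way to order the cells was the number of tendon markers detected. Of the FGF8 tendon-marker cells, 162, 78, 50 and 39 held 3, 4, 5 and 6 markers, and of the BSA cells 148, 89, 35 and 33. Median depth did not follow the number of markers in the FGF8 library (21452, 24089, 19275 and 21830 UMIs) but went from 23630 to 31592 UMIs across those of the BSA library. Among genes outside the rule, named here after their values were seen, some were higher in cells with more markers in both libraries and others lower. *Chst5* stood at 2.8, 9.3, 49.6 and 60.2 CPM from 3 to 6 markers with FGF8, and at 4.9, 4.3, 36.3 and 65.8 CPM with BSA. *Cilp2* went from 1.5 to 41.9 CPM with FGF8 and from 1.4 to 83.0 CPM with BSA. *Col11a1* went from 377 to 1085 CPM and from 555 to 1305 CPM. *Tnc* (tenascin C), in contrast, went from 532 to 316 CPM with FGF8 and from 487 to 289 CPM with BSA. *Aspn* (asporin) went from 1436 to 1020 CPM and from 2235 to 1349 CPM, and *Col12a1*, a collagen that associates with fibrils, from 1321 to 1012 CPM and from 1514 to 1143 CPM.

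The distance between conditions varied along this order. In CPM, *Spp1*, *Mmp3* and *Ccnd1* were furthest above BSA in FGF8 cells with 3 or 4 markers, although *Spp1* was above BSA in every class, at 124 against 14.3 CPM with 6 markers, while *Cited1*, a transcriptional co-regulator, was furthest above BSA, in CPM, in FGF8 cells with 6 markers. *Thbs4* was well above BSA with both 5 markers, at 1408 against 354 CPM, and 6 markers, at 1742 against 544 CPM, or 1564 CPM with FGF8 without its highest cell, which makes the distance in CPM larger at 5 markers than at 6. *Cited1* stood at 3.4, 22.5, 48.7 and 170 CPM with FGF8 from 3 to 6 markers, and at 5.2, 7.0, 28.5 and 52.5 CPM with BSA, and a single FGF8 cell held 21.1% of its UMIs. *Ogn* (osteoglycin), another leucine-rich proteoglycan, was lower with FGF8 in cells with 3 markers, at 139 against 380 CPM, but not in cells with 6, at 742 against 704 CPM. *Tnmd* itself stood at 2056 CPM (FGF8) and 1460 CPM (BSA) in cells with 6 markers, and at 78.3 and 149 CPM in cells with 3.

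**Figure D2:**
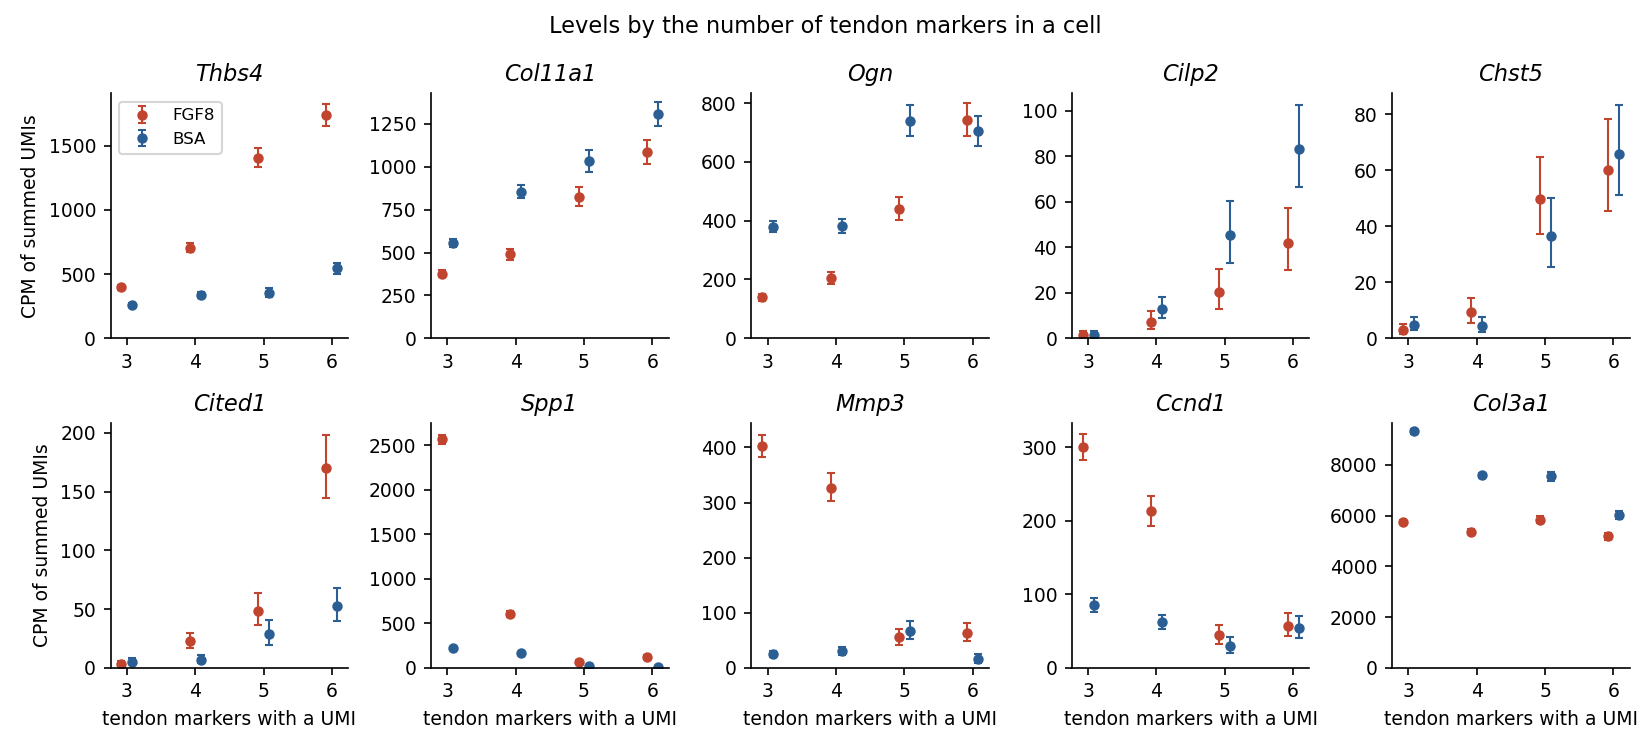
CPM of summed UMIs (vertical axes, each from 0) in tendon-marker cells with 3, 4, 5 or 6 of the 6 tendon markers (horizontal axes), with FGF8 in red and BSA in blue; bars are exact 95% intervals of the counts. *Thbs4* was higher with FGF8 in every class, reaching 1742 CPM against 544 CPM at 6 markers, whereas *Spp1* with FGF8 was highest in cells with 3 markers.

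The first comparison asked whether FGF8 altered how many tendon-marker cells there were. They made up 4.90% (4.40 to 5.44) of the cells kept from the FGF8 library and 9.38% (8.40 to 10.4) of those kept from the BSA library. The numbers themselves, 329 and 305, were close, while the libraries held 6715 and 3252 cells in all, and a share cannot tell fewer tendon-marker cells from more cells of other kinds. Among female-called cells the share was 5.39% (4.15 to 6.85) with FGF8 and 11.2% (9.80 to 12.7) with BSA. Among male-called cells it was 6.50% (5.71 to 7.37) and 8.68% (6.38 to 11.5), the latter from 44 cells, and these intervals overlap. After thinning of all cells to 5000 UMIs, which puts all cells at 1 depth, it was 2.86% (2.41 to 3.36) against 5.62% (4.75 to 6.61).

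The cap on *Prg4* bore on this share. *Prg4* encodes lubricin, the lubricant of joint surfaces and tendon sheaths, and cells that met every other condition but held 10 or more *Prg4* UMIs numbered 214 with FGF8 and 57 with BSA. With them, the shares were 8.09% (7.45 to 8.76) and 11.1% (10.1 to 12.3). Of the tendon-marker cells themselves, 121 (36.8%) with FGF8 and 216 (70.8%) with BSA had no *Prg4* UMI. At the limit, 42 and 23 tendon-marker cells held 5 to 9 *Prg4* UMIs, and 17 and 12 cells just outside held 10 to 14. At the other limit, 328 and 229 cells had 2 markers, including *Tnmd* or *Scx*, and so fell 1 marker short.

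**Figure D3:**
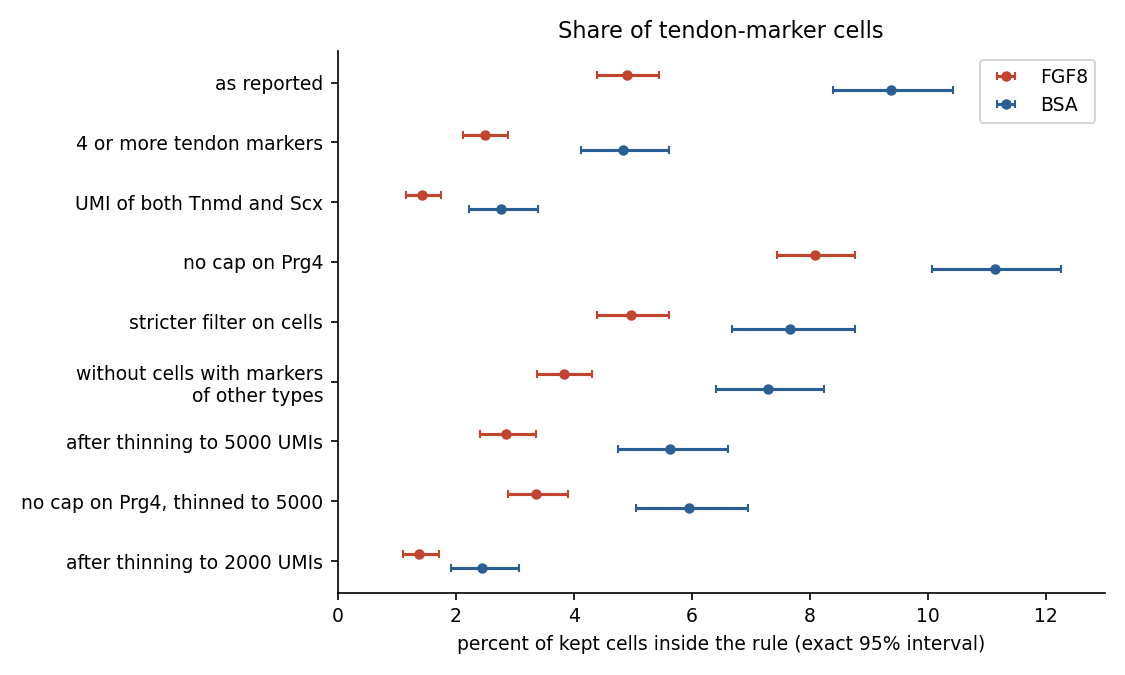
Percent of kept cells inside the rule (horizontal axis) in the FGF8 (red) and BSA (blue) libraries, as reported and under 8 other ways of choosing or thinning the cells; bars are exact 95% intervals. The BSA share was the higher of the pair in each of these rows, from 9.38% against 4.90% as reported to 2.44% against 1.38% after thinning to 2000 UMIs.

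The second comparison asked how the transcripts of the tendon-marker cells differed between FGF8 and BSA. Of 13654 genes with at least 20 UMIs, 2.75% had a log2 ratio of FGF8 over BSA above 1, 2.5% had one below -1, and 51.7% had one above 0, with a median of 0.02. Structural genes of the tendon matrix were lower with FGF8: of 43 matrix genes outside the rule, 36 had a ratio below 0 and 7 one above 0, with a median of -0.33. The median was -0.46 among female-called cells and -0.32 among male-called ones. It was also -0.33 in other connective tissue cells. Values in parentheses below are log2 ratios of FGF8 over BSA with their intervals.

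The fibrillar collagens stood out by their amount. *Col1a1* (chr11:94827050-94843868 on GRCm39), the main chain of tendon collagen, was at 7640 CPM with FGF8 and 13380 CPM with BSA (log2 ratio -0.81, -0.82 to -0.79), and its ratio was -1.04 among female-called cells and -0.73 among male-called ones. The median cell showed the same difference, with 7418 against 13228 CPM. *Col1a2* was at 8110 against 11843 CPM (-0.55), and *Col3a1* at 5597 against 8153 CPM (-0.54). Small leucine-rich proteoglycans, which space and bind the fibrils, were not uniform. Lower with FGF8 were *Ogn* at 268 against 465 CPM (-0.80), *Aspn* (asporin) at 1366 against 2129 CPM (-0.64) and *Lum* (lumican) at 1069 against 1646 CPM (-0.62). *Dcn* (decorin) differed less, at 1911 against 2046 CPM (-0.10), with a ratio of 0.34 in female-called cells, and *Prelp* was at 62.1 against 58.7 CPM (0.08, -0.10 to 0.26), with 0.53 in male-called cells. *Thbs2*, a thrombospondin of collagen-rich tissue, was at 388 against 598 CPM (-0.62). Over all 43 genes, the summed level was 43620 CPM with FGF8 and 61091 CPM with BSA.

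The matrix gene with the lowest ratio was *Chad*. *Chad* (chr11:94455696-94459953) encodes chondroadherin, a leucine-rich protein of cartilage and tendon that binds collagen and integrin, and stood at 3.15 CPM with FGF8 and 18.5 CPM with BSA, from 25 and 154 UMIs (log2 ratio -2.56, -3.23 to -1.94). Its ratio was -1.03 among female-called cells and -3.47 among male-called ones. In macrophage-gated cells of the FGF8 library *Chad* stood at 8.79 CPM, above its level over all tendon-marker cells of that library. With BSA, *Chad* was highest in cells with 5 or 6 markers, at 50.1 and 45.8 CPM, against 6.2 CPM in cells with 3, and with FGF8 the cells with 6 markers held 15.1 CPM.

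*Thbs4* was among the 7 matrix genes above 0. Thrombospondin 4, its product, is a glycoprotein of tendon and of the junction of muscle and tendon that binds collagen and orders its fibrils. It stood at 773 CPM with FGF8 and 332 CPM with BSA (log2 ratio 1.22, 1.16 to 1.29), with ratios of 0.52 among female-called cells and 2.06 among male-called ones. The median tendon-marker cell held 251 CPM with FGF8 and 43.9 CPM with BSA. From 3 to 6 markers, *Thbs4* stood at 398, 707, 1408 and 1742 CPM with FGF8 and at 260, 339, 354 and 544 CPM with BSA. At 5000 UMIs per cell it was found in 56.9% against 36.6% of tendon-marker cells, against 10.1% and 1.56% of macrophage-gated cells. Other connective tissue cells had less *Thbs4*, at 255 and 117 CPM, with a like ratio of 1.13.

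The region at the start of *Thbs4* is shown because this gene joined a high level in the cells richest in tendon markers to a higher level with FGF8. The sequence is from RefSeq (promoter table of GRCm38.p6) and was placed on GRCm39 by an exact and unique match at chr13:92931277-92931576, minus strand. It runs 5′ to 3′ from 250 bases before the start in RefSeq to base 50 from it; GENCODE starts the gene further upstream, at base 92931501, so most of the window lies inside the gene as given there. Capitals mark CANNTG, the E-box that basic helix-loop-helix factors such as scleraxis are known to bind, searched on both strands; it was found 2 times, and 72.3% of 32851 promoters of this length hold at least 1.
*Thbs4*: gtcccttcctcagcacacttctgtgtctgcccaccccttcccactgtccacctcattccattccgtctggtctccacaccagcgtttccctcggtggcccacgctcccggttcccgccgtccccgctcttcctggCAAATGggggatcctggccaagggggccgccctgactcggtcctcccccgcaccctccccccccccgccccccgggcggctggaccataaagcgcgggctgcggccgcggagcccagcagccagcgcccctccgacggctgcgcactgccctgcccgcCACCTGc
The matches describe the sequence only.

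Regulators of tendon growth showed no common direction. Of 30 regulators measured, 12 were above and 18 below 0, with a median of -0.07. *Smad7*, a feedback inhibitor of TGF-beta signalling, was higher with FGF8, at 168 against 107 CPM (0.66, 0.53 to 0.78), whereas *Tgfb3*, a ligand of that pathway, was at 85.4 against 114 CPM (-0.42, -0.57 to -0.28). *Pdgfa*, the PDGF ligand, was at 84.6 against 51.8 CPM (0.71). *Igf1*, a growth factor known to raise collagen synthesis in tendon, was at 249 against 186 CPM (0.42, 0.32 to 0.51) in tendon-marker cells but at 188 against 287 CPM (-0.61) in other connective tissue cells. *Igf1* was also highest in cells with 6 markers, at 561 CPM with FGF8 and 430 CPM with BSA. The homeobox gene *Meox1* had the highest ratio of the list, 2.93 (1.97 to 4.05), from 73 and 10 UMIs, of which a single FGF8 cell held 20.6%.

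Of the FGF receptors, *Fgfr1* and *Fgfr2* were the ones with most UMIs. *Fgfr1* stood at 200 and 174 CPM (0.20, 0.10 to 0.30), and *Fgfr2* at 111 and 118 CPM (-0.10, -0.23 to 0.04). Over 12 genes of FGF receptors, adaptors and ligands, 5 were above and 7 below 0, with a median of -0.05. Of 24 feedback and target genes of FGF and ERK signalling, 16 were above 0, with a median of 0.16. Within each sex 14 of the 24 were above 0, with medians of 0.09 (female-called) and 0.20 (male-called). In other connective tissue cells 20 of the 24 were above 0, with a median of 0.31. Over all genes, 51.7% were above 0. The few targets that stood far from 0 are given next.

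*Etv4*, an Ets factor induced by FGF, was the target with the highest ratio: 14.5 CPM with FGF8 and 2.53 CPM with BSA, from 115 and 21 UMIs (2.52, 1.84 to 3.26). It was higher among female-called cells (2.85) and among male-called ones (2.15), and was found at 5000 UMIs in 5.81% against 1.37% of tendon-marker cells, with 1.07% and 0.31% in macrophage-gated cells. *Ccnd1*, the G1 cyclin that ERK signalling raises, was at 214 against 67.5 CPM (1.67, 1.53 to 1.81), with 2.29 among female-called cells and 1.11 among male-called ones. *Errfi1*, an inhibitor of EGF receptors, was at 153 against 86.4 CPM (0.83), and *Dusp6*, the ERK phosphatase, at 14.2 against 9.51 CPM (0.58, 0.15 to 1.02, but -0.16 after thinning to 5000 UMIs). Of the Sprouty genes, feedback inhibitors of receptor signalling, *Spry1* was at 22.5 against 30.7 CPM (-0.45, -0.73 to -0.16). *Spry2* was at 26.7 against 31.5 CPM (-0.24, -0.51 to 0.03) and *Spry4* at 5.41 against 4.45 CPM (0.28, -0.39 to 0.96), both with intervals that include 0. *Etv4* and *Ccnd1* were thus higher with FGF8 over the tendon-marker cells as a set, while no Sprouty gene was distinguishably so at this depth. *Ccnd1* stood at 301 against 85.6 CPM with 3 markers and at 44.1 against 29.5 CPM with 5. With 6 markers *Ccnd1* differed little, at 56.98 against 54.39 CPM, and was found in 46.2% of FGF8 and 54.5% of BSA cells.

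**Figure D4:**
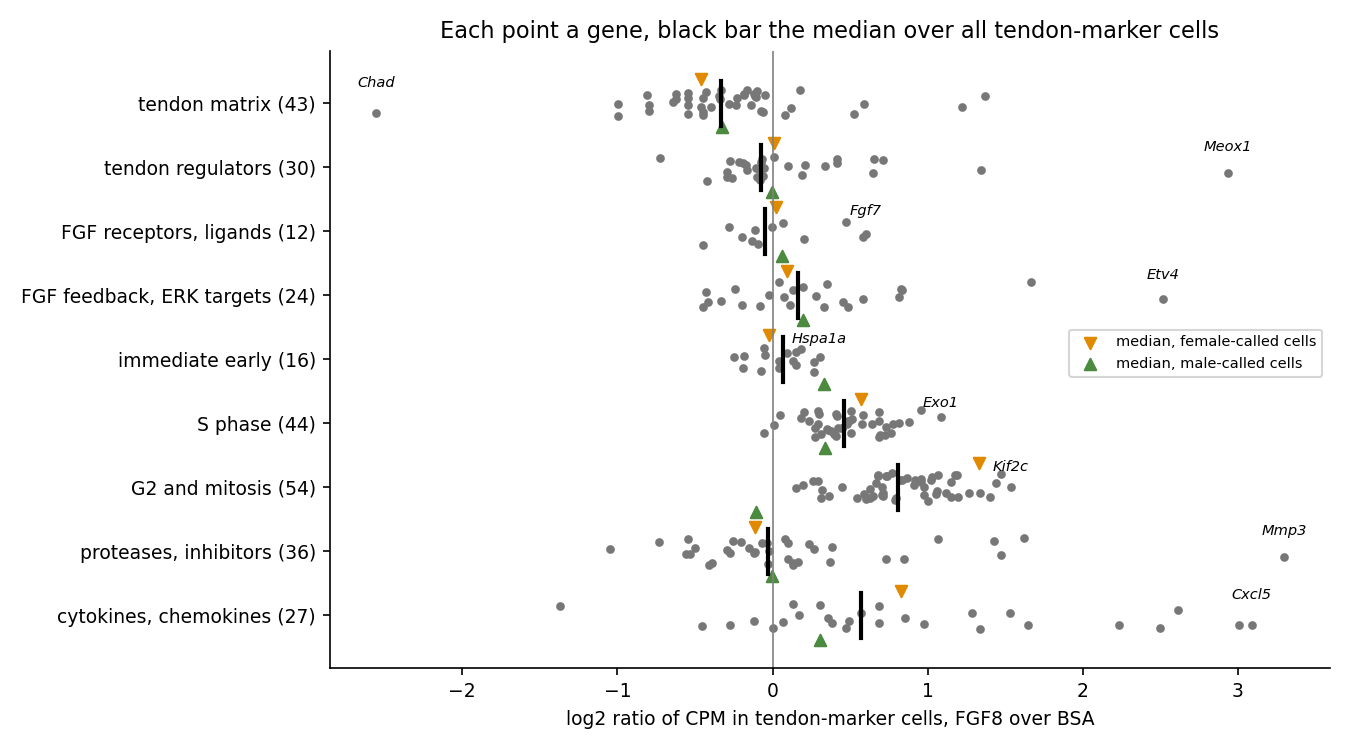
Log2 ratio of CPM in tendon-marker cells, FGF8 over BSA (horizontal axis), for each measured gene (grey points) of 9 lists, with the number of genes in parentheses; black bars mark the list median and triangles the median within female-called (orange) and male-called (green) cells. The tendon matrix list lay mostly below 0 with a median of -0.33, the G2 and mitosis list lay wholly above 0 over all cells with a median of 0.81, but its median in male-called cells was -0.10.

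Cell cycle genes were higher with FGF8 over all tendon-marker cells. Of 44 S phase genes 43 were above 0, with a median of 0.46, and of 54 genes of G2 and mitosis all 54 were above 0 and 18 above 1, with a median of 0.81. *Rrm2*, a subunit of the enzyme that makes deoxynucleotides, was at 101 against 51.9 CPM (0.96), and *Cenpa*, the centromeric histone, at 163 against 60.2 CPM (1.44). Within the sexes, the G2 and mitosis list had a median of 1.33 among female-called cells and -0.10 among male-called ones, where 24 of 54 genes were above 0. The male value rests on 44 BSA cells, and the difference between the sexes was not tested. *Kif2c*, a kinesin of the mitotic spindle, had the list's highest ratio over all cells, 1.54, with 2.48 among female-called cells and 0.05 among male-called ones.

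A count of cells gave a related picture over all tendon-marker cells, though not among male-called ones. At 5000 UMIs, a transcript of 3 or more of 10 mitotic genes was found in 26.0% (85 of 327, 21.3 to 31.1) of FGF8 tendon-marker cells and in 12.3% (36 of 292, 8.79 to 16.7) of BSA tendon-marker cells; without thinning, the shares were 43.2% and 20.3%. They were 28.0% and 9.15% in cells with 3 tendon markers and 32.1% and 14.0% in cells with 4, but 17.0% and 17.2% in cells with 5 or 6, or 30.3% and 22.1% of these without thinning. By sex, they were 22.6% and 10.4% among female-called cells and 28.0% and 18.2% among male-called ones, the last from 8 of 44 cells. The male-called share was thus higher with FGF8, whereas the G2 and mitosis median in those cells was -0.10. The intervals of the male-called shares overlapped (22.2 to 34.2 and 8.19 to 32.7). The libraries were thus furthest apart in tendon-marker cells with 3 or 4 markers, a contrast that was not tested. In other connective tissue cells the shares were 22.4% and 10.1%, in *Prg4*-high tendon-marker cells 64.0% and 26.3%, and in macrophage-gated cells 12.8% and 6.88%.

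**Figure D5:**
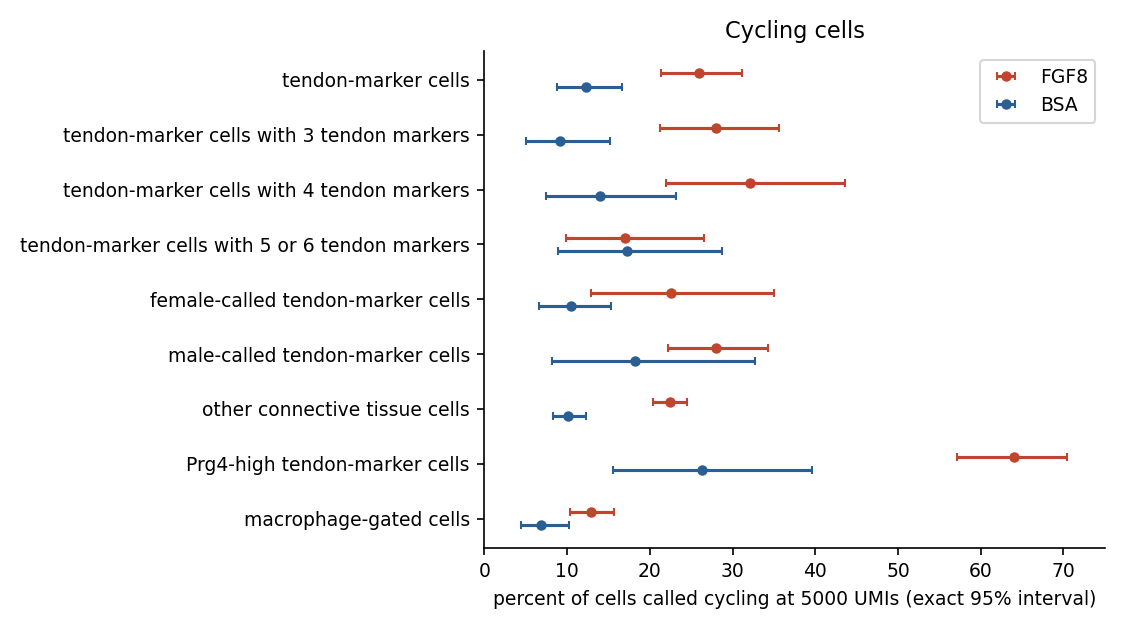
Percent of cells with a transcript of 3 or more of 10 mitotic genes after thinning to 5000 UMIs (horizontal axis), for FGF8 (red) and BSA (blue), in all tendon-marker cells, in subsets of them and in 3 other sets of cells; bars are exact 95% intervals. With 5 or 6 tendon markers the libraries overlapped at 17.0% and 17.2%, while with 3 markers they stood at 28.0% and 9.15%.

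Transcripts of matrix breakdown were mixed, with 17 of 36 proteases and inhibitors above 0 and 5 above 1. *Mmp3* (stromelysin 1), which degrades proteoglycans and activates procollagenases, was at 296 CPM with FGF8 and 30.1 CPM with BSA (3.30, 3.11 to 3.49). A single FGF8 cell held 36.3% of its UMIs and a single BSA cell 23.6%; without these cells the log2 ratio was 3.04. The ratio was 1.99 among female-called cells and 3.28 among male-called ones, and 4.15 in other connective tissue cells. *Mmp3* with FGF8 stood at 403 CPM in cells with 3 markers and at 63.4 CPM in cells with 6. Without the highest cell, the level at 3 markers was 186 CPM, below the 327 CPM of cells with 4. In cells with 5 markers *Mmp3* was at 55.2 CPM with FGF8, against 66.8 CPM with BSA or 9.08 CPM without the highest BSA cell. At 5000 UMIs *Mmp3* was found in 19.6% (15.4 to 24.3) of FGF8 and 6.16% of BSA tendon-marker cells, but also in 15.3% (12.6 to 18.3) of FGF8 macrophage-gated cells, and these intervals overlap. Macrophage-gated cells held 68.8 CPM with FGF8 and 0.35 CPM with BSA, and free RNA, doublets and expression in them were not told apart.

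*Timp1*, an inhibitor of these metalloproteinases, was at 1222 against 441 CPM (1.47, 1.42 to 1.53), with 1.64 among female-called cells and 1.26 among male-called ones. *Plau*, the urokinase plasminogen activator, was at 21.4 against 7.94 CPM (1.43, 1.01 to 1.86). Few cells held most *Plau* UMIs, with 82.9% in 33 FGF8 cells and 83.3% in 30 BSA cells. *Mmp3* and its inhibitor *Timp1* were thus both higher with FGF8 over the tendon-marker cells as a set. The 33 FGF8 cells with most *Mmp3* UMIs held 91.4% of them, whereas the median FGF8 cell held *Timp1* at 452 CPM. Whether the same cells held both was not tested.

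The region at the start of *Mmp3* is shown because this gene had the highest ratio of the protease list. It was taken and placed as for *Thbs4*, at chr9:7445572-7445871, plus strand on GRCm39. Capitals mark TGANTCA, the site of AP-1, a Fos and Jun factor that acts downstream of ERK, searched on both strands; it was found 1 time, and 7.81% of promoters of this length hold it.
*Mmp3*: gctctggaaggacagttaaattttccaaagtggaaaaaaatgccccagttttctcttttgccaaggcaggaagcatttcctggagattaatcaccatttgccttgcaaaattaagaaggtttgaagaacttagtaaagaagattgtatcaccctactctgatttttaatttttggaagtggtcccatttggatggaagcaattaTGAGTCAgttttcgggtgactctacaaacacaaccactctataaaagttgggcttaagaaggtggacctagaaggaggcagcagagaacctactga
The match describes the sequence only. Immediate-early genes, to which Fos and Jun belong, had a median ratio of 0.07 over 16 genes, with 10 above 0. Among female-called cells 4 of the 16 were above 0 (median -0.02), and among male-called ones 13 (median 0.33). In other connective tissue cells 13 were above 0 (median 0.47).

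Cytokines, chemokines and their receptors were mostly higher with FGF8, with 23 of 27 above 0, 9 above 1 and a median of 0.57. *Cxcl5*, a chemokine for neutrophils, was at 200 against 23.5 CPM (3.09, 2.87 to 3.31), with 2.97 among female-called cells and 2.65 among male-called ones. *Il1rl1*, the receptor for interleukin 33, was at 73.5 against 12.0 CPM (2.61). The 33 FGF8 cells with most UMIs of the gene held 89.9% for *Cxcl5* and 83.7% for *Il1rl1*. The median FGF8 cell stood at 0 CPM for both genes. *Ccl7* and *Ccl2*, chemokines for monocytes, were at 207 against 66.1 CPM (1.64) and 154 against 53.1 CPM (1.53). *Ccl2* differed little in female-called cells (0.42) and more in male-called cells (2.89). A single male-called FGF8 cell held 24.1% of the FGF8 *Ccl2* UMIs, and 33 FGF8 cells held 86.7% of them. In macrophage-gated cells *Ccl7* and *Ccl2* stood higher than in tendon-marker cells, at 316 and 251 CPM and at 406 and 319 CPM, whereas *Cxcl5* was lower there, at 55.2 and 9.33 CPM. The list median was 0.69 in other connective tissue cells.

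*Spp1* (chr5:104582165-104589235), which encodes osteopontin, a phosphoprotein of bone and of wounded tissue, had one of the highest ratios, with 1434 CPM with FGF8 and 152 CPM with BSA (3.23, 3.15 to 3.32). A single FGF8 cell held 3647 of its UMIs, or 32.0%, and the 33 cells with most of them held 96.0%; without the highest cell of each library the ratio was 3.05. *Spp1* was nevertheless found in more of the cells, in 72.8%, 78.2%, 58.0% and 71.8% of FGF8 cells with 3, 4, 5 and 6 markers and in 21.6%, 24.7%, 22.9% and 21.2% of BSA cells. At 5000 UMIs it was found in 36.1% against 12.0% of tendon-marker cells, but in 55.7% against 20.3% of macrophage-gated cells, so these shares lay below those of another cell type that carries it. Its level with FGF8 was 2566 CPM in cells with 3 markers, or 1647 CPM without the highest cell, and 124 CPM in cells with 6. Most *Spp1* UMIs were thus held by few cells, and its level was highest in cells with few tendon markers.

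Of the genes named for the blastema, the cell mass that precedes digit regrowth, *Hmga2*, a chromatin protein of embryonic growth, was at 138 against 31.9 CPM (2.11, 1.92 to 2.31), and *Hmga1* at 15.1 against 4.45 CPM (1.76). *Hmga2* was higher among female-called cells (2.58) and among male-called ones (1.80). The 33 FGF8 cells with most *Hmga2* UMIs held 81.4% of them, and the highest cell alone held 14.4%. The median FGF8 cell stood at 0 CPM. The list of 16 blastema genes had a median of 0.11. Joint genes (16 genes, 7 of them above 0) had a median of -0.03, with *Prg4* (lubricin), which the rule capped, highest at 69.9 against 34.4 CPM (1.02), *Erg*, an Ets factor of joint cartilage, at 44.2 against 68.7 CPM (-0.64) and *Htra1*, a secreted protease, at 352 against 556 CPM (-0.66). Of 11 cartilage genes, the median was -0.47, with *Matn3* at 7.30 against 16.1 CPM (-1.14), under a rule that capped this class of genes. Of 11 myofibroblast genes, the median was 0.06, with 0.34 among female-called cells and -0.48 among male-called ones. *Cthrc1*, which is induced in wound fibroblasts, was at 1206 against 1844 CPM (-0.61).

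Across all genes with at least 100 UMIs and 1 direction in both sexes, the 10 highest ratios were those of *Krt71*, *Krt25*, *Mmp3*, *Spp1*, *Cxcl5*, *Gm41609*, *Il1rl1*, *Etv4*, *Chl1* and *C1qa*. *Krt71* and *Krt25*, keratins of the hair root sheath, had 88.8% and 88.7% of their FGF8 UMIs in the same single cell, and without the highest cells their log2 ratios were 1.51 and 1.23 in place of 4.47 and 4.27. *C1qa*, a complement gene of macrophages, had 70.2% of its FGF8 UMIs in 1 cell. *Chl1*, a neural cell adhesion molecule, was spread over more cells, with 4.95% in the highest, and stood at 115 against 20.6 CPM (2.48, with 2.47 in each sex). The 10 lowest were *Chad*, *Gm10635*, *Cxcl15*, *Ndufa4l2*, *Zim1*, *Pik3ip1*, *Lhfpl3*, *Ccl8*, *Slc26a7* and *Mctp1*, with log2 ratios from -2.56 to -1.36. *Ndufa4l2*, a mitochondrial protein induced in hypoxia, was at 39.4 against 112 CPM (-1.50, -1.69 to -1.31).

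Globin transcripts also differed between the libraries of tendon-marker cells. Summed over 6 erythroid genes, they made up 2480 CPM with FGF8 and 8008 CPM with BSA, while in other connective tissue cells they made up 12293 and 5527 CPM. *Hba-a1*, an alpha globin gene, was lower with FGF8 over all tendon-marker cells (-1.65) but higher among female-called cells (1.55) and among male-called ones (4.18) taken alone. A single BSA cell without a sex call held 30.8% of its BSA UMIs, and a single female-called FGF8 cell 43.2% of its FGF8 UMIs. The median cell stood at 42.1 CPM with FGF8 and 32.1 CPM with BSA, the reverse of the ratio over summed UMIs. The part of these transcripts in the ratios of other genes was not tested.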

How the data were processed

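Cells of pooled digits were captured with 10x 3′ chemistry (v3.1). The authors made the deposited UMI counts, which are raw counts per gene and cell barcode, with Cell Ranger 9.0.0 on GRCm39; the submitters' processing notes also name mm10 and Seurat. The files list 33696 genes, 7249 (FGF8) and 3703 (BSA) barcodes, and hold cells outside the filters of the study's methods, which were applied here: 201 to 7499 genes and under 15% mitochondrial UMIs, leaving 6715 and 3252 cells. The members and gene lists were chosen with earlier results of these data known.

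UMIs were summed per library over the member cells and scaled to CPM. Log2 ratios had exact conditional 95% intervals, and shares exact Clopper-Pearson intervals. Both cover counting error only, and with 1 library per condition no p-value was computed. UMIs from the 3′ end are not scaled by gene length, so levels were not compared between genes. List medians were taken over genes whose UMIs in the 2 libraries summed to 20 or more; 1 listed gene, *Spry3*, was not used here. Thinning drew 5000 or 2000 UMIs from each cell without replacement and left out shallower cells. The sex of a cell was called from *Xist* or Y-linked UMIs, and cells with neither or both were not called.

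Named genes were the rule genes, genes of the tendon matrix, tendon regulator and FGF lists, the 4 with the largest ratio of other lists, the 10 highest and 10 lowest ratios with at least 100 UMIs and 1 direction in both sexes, found in at least 5% of the cells of the higher library, and the 15 highest over other connective tissue cells, found in at least 10% of tendon-marker cells. *Sox9* and *Acan* by marker class, *Hba-a1* and the genes of opposite direction were chosen after their values were seen. Other connective tissue cells carried a UMI of 3 or more of *Pdgfra*, *Pdgfrb*, *Dpt*, *Lum*, *Mfap5*, *Mfap4*, *Twist1*, *Twist2* and *Prrx1*, met the same caps, lay outside the rule and had none of *Ptprc*, *Pecam1*, *Sox10*, *Rgs5* and *Krt14*. Macrophage-gated cells carried 4 or more of *C1qa*, *C1qb*, *C1qc*, *Ptprc*, *Csf1r*, *Adgre1*, *Fcer1g* and *Tyrobp*.

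Doublets were not called or removed. Python 3.11.15 was used with numpy 2.4.6, scipy 1.17.1, pandas 2.3.3 and matplotlib 3.10.9, and the ratios were tested on simulated counts. Gene positions are from GENCODE on GRCm39. Alternatives were other marker, *Prg4* and cell filters, thinning, equal weight of cells, each sex alone, centring and other UMI minimums; no cap on *Prg4* together with thinning, and ratios without the highest cell, were chosen after seeing the data.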

Additional observations from a re-analysis of the deposited data

Results flagged for a closer look

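Ratios of opposite sign were looked for among 299 listed genes with at least 100 UMIs. A gene was counted only if both of its counting intervals excluded 0, so further genes differed in sign alone. The count was 13 genes between tendon-marker cells and other connective tissue cells. Between female-called and male-called tendon-marker cells it was 38 genes. Given here are the genes whose ratios differed by more than 1 between the sets of cells, or by more than 2 between the sexes with at least 1000 UMIs; none of these differences was tested, since each condition is 1 library. *Igf1*, the growth factor, had a log2 ratio of FGF8 over BSA of 0.42 in tendon-marker cells and -0.61 in other connective tissue cells. *Mmp13*, a collagenase, stood at -0.30 against 1.82, *Ccl8*, a monocyte chemokine, at -1.37 against 0.24, and *Cxcl2*, a neutrophil chemokine, at -0.27 against 2.36. The sign in tendon-marker cells did not hold for *Mmp13*, which was 0.24 without the highest cells and 1.95, 4.48 and 1.98 with 4 or more markers, both markers and the stricter filter, nor for *Cxcl2*, which was 0.19, 0.37 and 0.75 with 4 or more markers, no cap on *Prg4* and both markers, and 0.0121 in male-called cells. Between the sexes, *Ube2c*, which acts in mitotic exit, stood at 2.55 in female-called and -0.70 in male-called tendon-marker cells, and *Cenpf*, a kinetochore protein, at 1.43 and -0.65. *Mmp13* stood at 1.53 and -1.11, and *Acta2*, the smooth muscle actin of myofibroblasts and vessel walls, at 1.20 and -1.12. Genes with fewer UMIs differed by as much, among them *Aurka*, a mitotic kinase, at 2.05 and -0.76, *Has1*, a hyaluronan synthase, at 1.90 and -0.70, and *Dlgap5*, a spindle protein, at 1.68 and -0.69. The male values rest on 44 BSA cells and the female values on 62 FGF8 cells.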

How the results depend on the processing

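The share of tendon-marker cells was lower with FGF8 than with BSA under every alternative run: 2.49% against 4.83% with 4 or more markers, 1.43% against 2.77% with both *Tnmd* and *Scx*, 8.09% against 11.1% with no *Prg4* cap, 4.98% against 7.67% with a stricter cell filter (fewer genes and mitochondrial UMIs allowed), 3.83% against 7.29% without cells holding markers of other types, 2.86% against 5.62% and 1.38% against 2.44% after thinning to 5000 and 2000 UMIs, and 3.36% against 5.95% with thinning to 5000 and no cap. The cycling share with FGF8 was 41.0% with no cap, 21.1% with both markers, 17.1% with the stricter filter and 18.5% at 2000 UMIs, and with BSA 4.81% with the stricter filter, 8.64% at 2000 UMIs and 18.2% in male-called cells. The tendon matrix median was -0.56 with no cap and -0.46 in female-called cells, the regulator median -0.29 and the protease median -0.23 with no cap. The G2 and mitosis median was 1.17 with no cap, 0.44 with both markers, 2.06 with the stricter filter, 1.04 without cells holding markers of other types and 1.33 in female-called cells, and turned to -0.10 in male-called cells. The cause was not tested.

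For 74 single genes, 396 of 806 alternative values stayed inside the counting interval, 372 moved outside it with the same sign and 38 changed sign, which follow here as log2 ratios. *Tnmd* was -0.24 with no cap, -0.0688 without cells holding other markers and -0.28 in female-called cells. *Fmod* was 0.0944 with 4 or more markers, 0.32 with both markers, 0.0108 with the stricter filter, 0.0438 with equal weight of cells, 0.0103 at 5000 UMIs and 0.40 in male-called cells. *Comp* was 0.20 and *Mkx* 0.11 with both markers, and *Mkx* 0.42 and *Ecrg4* 0.0174 in male-called cells. *Dusp6* was -0.16 at 5000 UMIs, and *Spry1* was 0.00070 in female-called cells. *Cxcl2* was 0.19 with 4 or more markers, 0.37 with no cap, 0.75 with both markers and 0.0121 in male-called cells. *Mmp13* was 1.95, 4.48 and 1.98 with 4 or more markers, both markers and the stricter filter, 1.53 in female-called cells and 0.24 without the highest cells. *Dcn* was 0.20 with 4 or more markers, 0.26 with both markers, 0.0089 with equal weight of cells, 0.0455 at 5000 UMIs and 0.34 in female-called cells. *Acta2* was -0.28 with no cap, -0.46 without cells holding other markers, -1.12 in male-called cells and -0.0303 without the highest cells. In male-called cells *Cenpf* was -0.65 and *Ube2c* -0.70. *Hba-a1* was 0.0463 without cells holding other markers, 1.55 in female-called cells and 4.18 in male-called cells. No paired analysis was possible because each condition is 1 library. Genes with few UMIs, such as *Etv4* and *Meox1* with BSA (21 and 10), are limited by depth.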

Other observations

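Cells that met every condition but the cap on *Prg4* were set beside the tendon-marker cells. With FGF8 these 214 cells had more *Thbs4* (1171 CPM against 773 CPM), more *Timp1* (4753 against 1222 CPM), more *Mmp3* (1536 against 296 CPM) and more *Hmga2* (440 against 138 CPM) than the tendon-marker cells. With BSA the 57 corresponding cells held *Mmp3* at 22.4 CPM and *Hmga2* at 64.3 CPM, against 30.1 and 31.9 CPM in the tendon-marker cells. *Scx* was at 161 CPM (FGF8) and 220 CPM (BSA) in them, while *Tnmd* was lower than in tendon-marker cells, at 90.5 and 83.7 CPM, and *Cited1* stood at 2.66 and 2.04 CPM. These values were chosen after they were seen and were not tested.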
